A study of Homo sapiens with 6 samples.

Results

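MET, MST1R and TYRO3 encode 3 receptor tyrosine kinases of epithelial cells, and they were followed here in NCM-460 cells, a line of epithelial cells taken from human colon that was normal. The members were taken by gene name from the deposited table of raw counts, in which they are 3 of 236 genes. All 3 were above background in each of the 6 samples, and all 3 are reported. The members and the gene lists used below were chosen with earlier results of these data known. The control group held 3 samples transfected with a control siRNA, and the other group held 3 samples transfected with pri-miR-135b, the long transcript from which cells cut the microRNA miR-135b. In its design text the series calls both agents oligos instead, one of them scrambled, and the sample labels are followed here. By those labels the groups differ in the kind of RNA given as well as in miR-135b, and these differences cannot be told apart. RNA was counted on the NanoString nCounter platform, where pairs of barcoded probes bind the RNA and each bound pair is counted with no amplification step. Separate cultures are not named in the labels, so the p-values reflect how far these 6 samples scatter, and that scatter may be technical. In edgeR the scatter used for a gene is also drawn in part from the other tested genes.

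Receptor tyrosine kinases span the cell membrane, bind a ligand outside the cell and phosphorylate themselves and adaptor proteins inside it. MET is the receptor of hepatocyte growth factor, and MST1R, also called RON, is the receptor of macrophage-stimulating protein. These proteins form a small family of their own, can associate with each other, and drive scattering, migration and survival of epithelial cells, in the colon among other tissues. TYRO3 belongs to a different family, with AXL and MERTK, and binds the vitamin K-dependent proteins GAS6 and protein S. The ligand genes HGF, MST1, GAS6 and PROS1 and the receptors AXL and MERTK are not on the panel, so they could not be measured.

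The 2 mature arms of the transfected microRNA precursor are shown with the seed, bases 2 to 8, in capitals, because the seed is the part with which a microRNA pairs to its target transcripts. Both lie on chromosome 1, minus strand, of GRCh38.p14 in RefSeq, at chr1:205448361-205448383 for the 5p arm and at chr1:205448323-205448344 for the 3p arm. No transcript sequences of the receptors were used, so no target sites were searched.
hsa-miR-135b-5p: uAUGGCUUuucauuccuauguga
hsa-miR-135b-3p: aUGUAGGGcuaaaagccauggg

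Each sample gave between 250792 and 392207 counts over the 236 genes, with the smallest totals in replicate 3 of either group. Background, the mean of 8 negative control probes plus 2 SD, was 14.7 to 26.1 counts. The line could be checked against 4 epithelial markers, of which E-cadherin (CDH1), ERBB2 and ERBB3 were well above background and the mucin MUC1 exceeded it in 1 of 6 samples. Of the markers of other cell types, 1 of 3 fibroblast, 1 of 3 endothelial and 3 of 8 blood cell genes rose above background often enough to be tested, and none of these passed the test. Their summed normalised counts were 26.1 to 42.8 in the controls and 36.6 to 38.6 in miR-135b samples for the fibroblast genes, 22.4 to 33 and 29.7 to 45.9 for the endothelial genes, and 98.2 to 113.7 and 80.3 to 104 for the blood cell genes. The fibroblast receptors PDGFRA and PDGFRB, the endothelial genes FLT1 and TEK and the blood cell genes CSF1R, CSF3R, FLT3, KIT and LCK were above background in no sample.

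Of the 3 receptors MET passed the test, and it rose in the miR-135b samples. Its raw counts were 4570, 5273 and 3369 in the 3 controls, taken in replicate order, and 6670, 5529 and 4300 in the miR-135b replicates, 171 to 418 times the background of the same sample. After TMM normalisation, which removes differences in depth between samples, MET had 4450.4, 4352.6 and 4401.3 counts in the controls and 5550.6, 5474.5 and 5480.8 in miR-135b samples. Every miR-135b sample lay above every control sample. Groups that did not overlap were common on the panel, at 51.7% of tested genes, 21.8% with the miR-135b samples higher and 29.9% with them lower. The means were 4401.4 ± 48.9 and 5502 ± 42.2 (SD, n = 3), a rise of 1.25-fold with a 95% interval of 1.192 to 1.311. The log2 fold change was 0.32 (SE 0.03, adjusted p = 4.1e-08 by edgeR's quasi-likelihood test with Benjamini-Hochberg adjustment over the 174 genes tested).

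The rise of MET was moderate in size and measured with a small spread. The counts come from whole cultures, so more cells with the transcript and more transcript per cell cannot be told apart. The samples of a group differed by a coefficient of variation of 1.11% in the controls and 0.768% in miR-135b samples, which is no more than the 1.22% to 1.72% that counting alone gives at these counts. Calls were common on this panel: 75 of 174 tested genes passed (43.1%), 31 higher (17.8%) and 44 lower (25.3%), a split that became 37 higher and 30 lower with reference gene scaling. Among the 31 called rises, that of MET ranked 18, counted from the largest. The MET call was kept in each of the 6 fits that left out a sample, with log2 fold changes between 0.31 and 0.33. With limma the adjusted p was larger, at 0.00142 on the authors' values and 0.0013 on background-subtracted counts with reference gene scaling. Scaling the samples by the positive spike probes instead of TMM left the fold change at 0.37 but ended the call (edgeR adjusted p = 0.093, with 3.84e-24 to 0.093 over all 17 alternatives). The spikes made up 8.18% to 11.3% of the gene counts, and both of these extremes lay in the miR-135b group, in replicates 2 and 3.

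**Figure D1:**
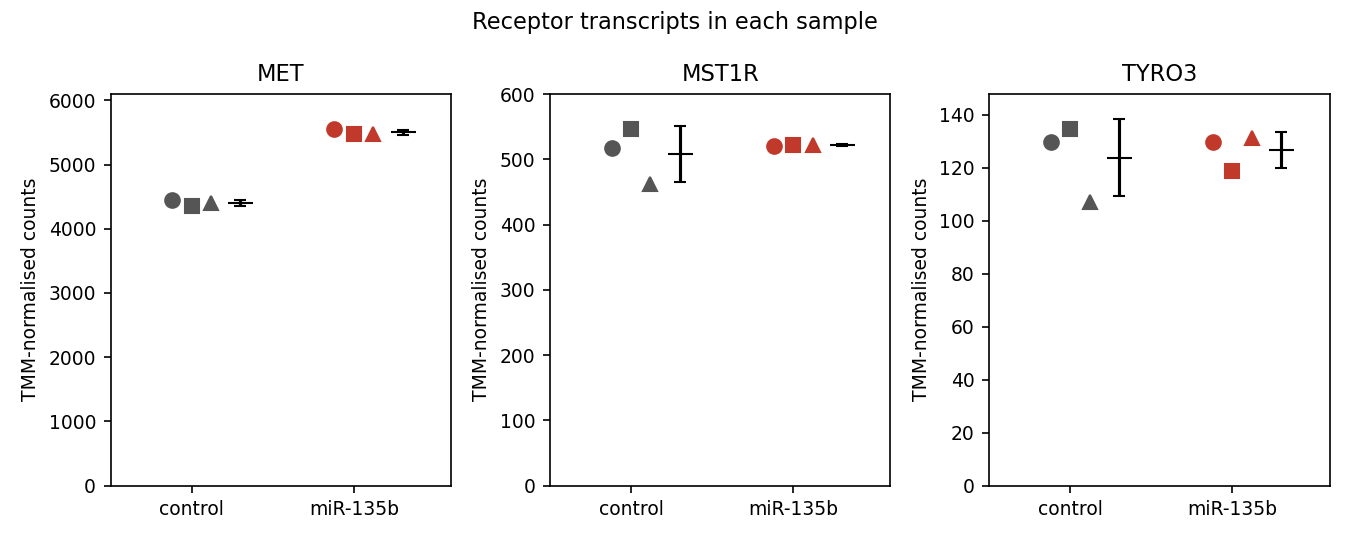
TMM-normalised counts of MET, MST1R and TYRO3 on linear axes that start at 0, with circles, squares and triangles for replicates 1, 2 and 3 and black bars for the mean ± SD of 3 samples. The MET groups are apart, at 4352.6 to 4450.4 in the controls and 5474.5 to 5550.6 in miR-135b samples, while the groups of MST1R and TYRO3 overlap and control replicate 3 is the lowest sample for both.

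MST1R, the nearest relative of MET, gave no call. Its raw counts were 531, 662 and 354 in the 3 controls, taken in replicate order, and 626, 528 and 410 in the miR-135b replicates, at least 18 times background. The normalised counts were 517.1, 546.4 and 462.5 in the controls and 520.9, 522.8 and 522.6 in miR-135b samples. The miR-135b samples lay within 2 counts of each other and inside the range of the controls, among which replicate 3 was low. The means were 508.7 ± 42.6 and 522.1 ± 1.02 (SD, n = 3), and the log2 fold change was 0.03 (SE 0.07, edgeR adjusted p = 0.775). The 95% interval of the fold change, 0.924 to 1.121, does not reach the 1.25-fold of MET. The coefficient of variation of the miR-135b samples, 0.195%, was below the 4% to 4.94% that counting alone gives.

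TYRO3 lay closest to background, at 4.17 to 9.77 times that level, and gave no call either. Its raw counts were 133, 163 and 82 in the controls and 156, 120 and 103 in miR-135b samples. The normalised counts were 129.5, 134.5 and 107.1 against 129.8, 118.8 and 131.3, so the groups overlapped and the lowest value of all was again control replicate 3. The means were 123.7 ± 14.6 and 126.6 ± 6.81 (SD, n = 3), and the log2 change was 0.01 with an SE of 0.12 (adjusted p = 0.935 by edgeR). Here the 95% interval of the fold change was wider, 0.848 to 1.2. Counting alone gives a coefficient of variation of 7.83% to 11% at these counts, against 11.8% measured in the controls and 5.38% in miR-135b samples.

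Neither of these small differences kept its sign without control replicate 3. On the log2 scale this replicate differed from the mean of the other controls by -0.2 for MST1R and -0.3 for TYRO3, and by 0 for MET. Without it the log2 fold change of MST1R turned to -0.02 (edgeR adjusted p = 0.813, with 0.351 to 0.835 over 17 alternatives) and that of TYRO3 to -0.06 (0.701, with 0.522 to 0.961). TYRO3 also turned to -0.01 without miR-135b replicate 1 or 3. Control replicate 3 had the smallest total count of the controls, and whether that plays a part was not tested. It held the lowest normalised control value in 34.5% of the 174 tested genes, beside 33.9% for replicate 1 and 31.6% for replicate 2.

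**Figure D2:**
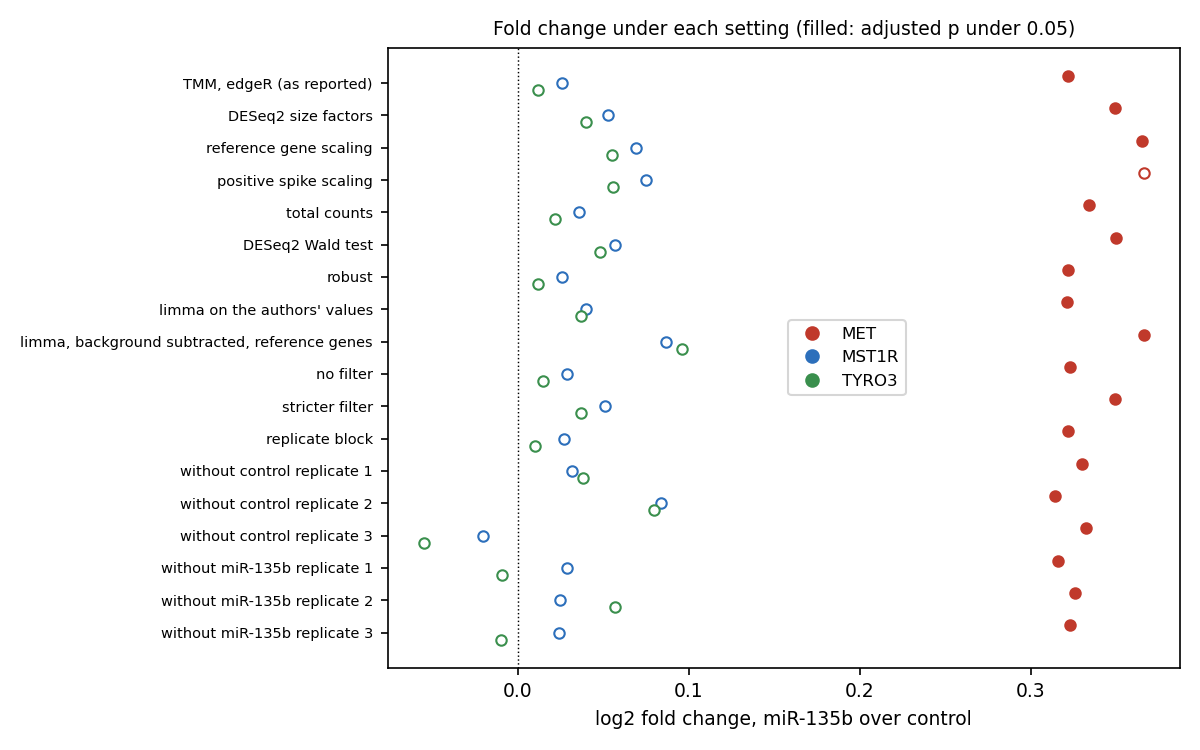
Log2 fold change (miR-135b over control, horizontal axis) of the 3 receptors with the reported method and 17 alternatives (rows), filled where the adjusted p is under 0.05. MET stays between 0.31 and 0.37 and is filled in every row but spike scaling, and MST1R and TYRO3 stay between -0.06 and 0.10 with no filled point.

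Ratios of counts within a sample do not depend on how samples are scaled, and they compare the receptors directly. They say how the receptors moved against each other, not which transcript is more abundant, because probes differ in efficiency. The raw count of MET was 8.61, 7.97 and 9.52 times that of MST1R in the 3 controls, taken in replicate order, and 10.7, 10.5 and 10.5 times in the miR-135b replicates. All 3 miR-135b samples lay above all 3 controls. The mean log2 ratio went from 3.12 ± 0.129 to 3.40 ± 0.0139 (SD, n = 3), a difference of 0.28 (two-sided exact permutation p = 0.1, adjusted p = 0.2 over 6 ratios). No smaller p than 0.1 is possible with 3 samples against 3, so this test cannot pass a threshold of 0.05.

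MET against TYRO3 moved by a like amount. The ratio was 34.4, 32.3 and 41.1 in the controls and 42.8, 46.1 and 41.7 in miR-135b samples, and the highest control came close to the lowest miR-135b sample. The difference of mean log2 ratios was 0.28 (two-sided exact permutation p = 0.1, adjusted p = 0.2), and with background subtracted first the groups overlapped (difference 0.27, exact permutation p = 0.2). MST1R over TYRO3 was 3.99, 4.06 and 4.32 in the controls and 4.01, 4.4 and 3.98 in miR-135b samples, which overlap (difference 0.00, exact permutation p = 1).

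The receptors were also set against the geometric mean of 6 usual reference genes (TUBB, PGK1, HPRT1, GUSB, GAPDH and CLTC). MET over this mean was 0.984, 0.938 and 0.964 in the controls and 1.24, 1.23 and 1.25 in miR-135b samples, again without overlap (log2 difference 0.37, exact permutation p = 0.1, adjusted p = 0.2). MST1R and TYRO3 overlapped between the groups on this scale, each with a log2 difference of 0.08 (exact permutation p = 0.3 and 0.6). That of TYRO3 turned to -0.02 without control replicate 3. The reference genes themselves had log2 fold changes between -0.12 (PGK1) and 0.05 (TUBB), and PGK1 alone was called (edgeR adjusted p = 0.000973).

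**Figure D3:**
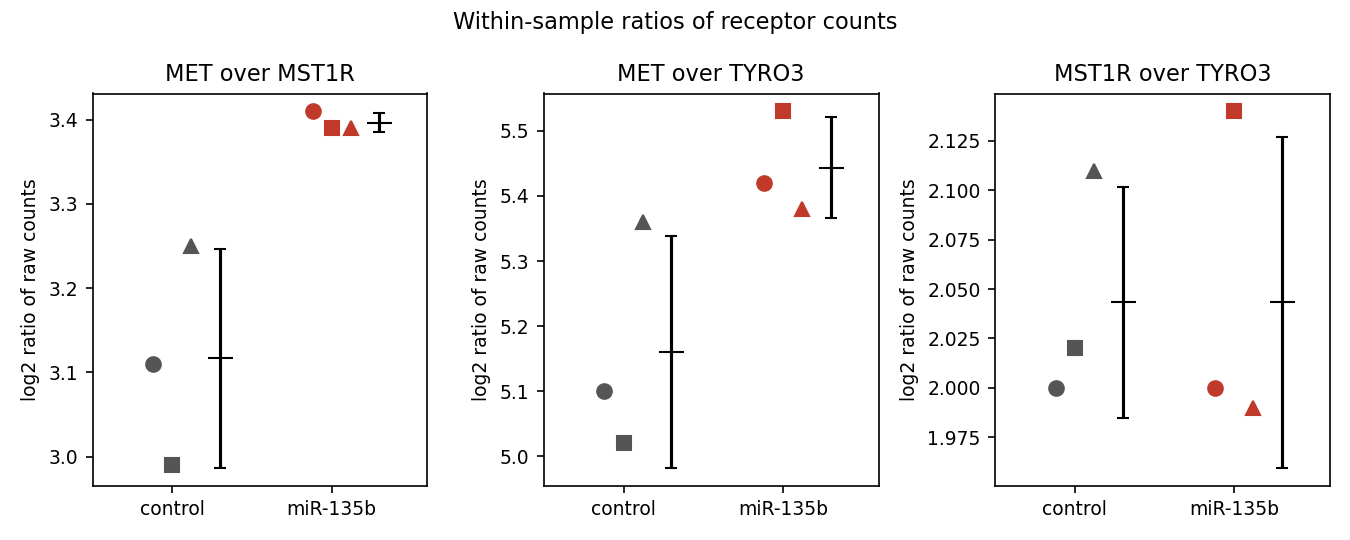
Log2 ratio of raw counts within each sample for the 3 pairs of receptors, with circles, squares and triangles for replicates 1, 2 and 3 and black bars for the mean ± SD of 3 samples; each panel has its own vertical axis, which does not start at 0. MET over MST1R is 2.99 to 3.25 in the controls and 3.39 to 3.41 in miR-135b samples, and MST1R over TYRO3 overlaps between the groups.

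Among the other receptor tyrosine kinases of the panel the changes called in the reported fit were falls. Of 58 kinases on the list used, 24 were on the panel and 11 could be tested: 1 rose (MET), 3 fell (FGFR3, ERBB3 and ERBB2) and 7 gave no call. With DESeq2 size factors or reference gene scaling the split was 2 higher and 2 lower, as PTK7 gained a call and ERBB2 lost it. That is 4 of 11 called, beside 43.1% of all tested genes, and the median log2 fold change was 0.01 against -0.04 over all tested genes. FGFR3, a fibroblast growth factor receptor, fell from 464.5, 437.5 and 381.5 to 278.8, 284.2 and 284.2 normalised counts (log2 change -0.61 with SE 0.08, adjusted p = 1.39e-06 by edgeR). ERBB3, a partner through which MET is known to signal in some cancer cells, fell from 854, 873.3 and 872.7 to 644.9, 564.4 and 614.4 (log2 change -0.51 with SE 0.06, adjusted p = 2.55e-07 by edgeR). In both genes the groups did not overlap, as in 51.7% of all tested genes.

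ERBB2 was called lower with less margin. It had 607.7, 570.4 and 661 normalised counts in the controls and 519.3, 536.7 and 551.9 in miR-135b samples (log2 change -0.19, adjusted p = 0.0234 by edgeR). Leaving out replicate 1 (0.0537) or 3 (0.128) of the controls, or replicate 1 (0.111) or 2 (0.0568) of the miR-135b samples, ended the call. So did DESeq2 size factors (0.0517), the DESeq2 Wald test (0.0907), reference gene (0.0908) and spike (0.656) scaling, limma on the authors' values (0.0516) and limma on background-subtracted counts with reference gene scaling (0.171). The call was kept in 7 of 17 alternatives, with a lowest adjusted p of 0.00771. PTK7, a catalytically inactive receptor of Wnt signalling, had 32.1, 38.8 and 41.8 counts in the controls and 56.6, 40.6 and 58.6 in miR-135b samples. Its fitted log2 fold change, 0.47 (SE 0.20), exceeded that of MET but did not pass (edgeR adjusted p = 0.0573). PTK7 passed in 6 of 17 alternatives (range over all 17, 0.0299 to 0.227). Some of these kept TMM: edgeR's robust option (0.0481) and the stricter filter of all 6 samples above background (0.0414). The fits without control replicate 3 (0.0412) and without miR-135b replicate 2 (0.0299) also did.

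EGFR, the epidermal growth factor receptor and a known partner of MET, was flat, with 226.9, 249.3 and 201.2 normalised counts in the controls and 229.7, 204 and 233.3 in miR-135b samples. Its log2 fold change of -0.04 (edgeR adjusted p = 0.753) turned sign under 5 alternatives. FGFR2 and FGFR4 had log2 fold changes of -0.17 and 0.02 (edgeR adjusted p = 0.114 and 0.89), and FGFR2 passed without control replicate 3 alone (0.0445, with 0.0445 to 0.699 over 17 alternatives). KDR, the endothelial growth factor receptor, was above background in 3 of 6 samples and gave no call (edgeR adjusted p = 0.17). Of the 13 kinases not tested, 12 were above background in no sample, and ERBB4 was above it in 2.

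**Figure D4:**
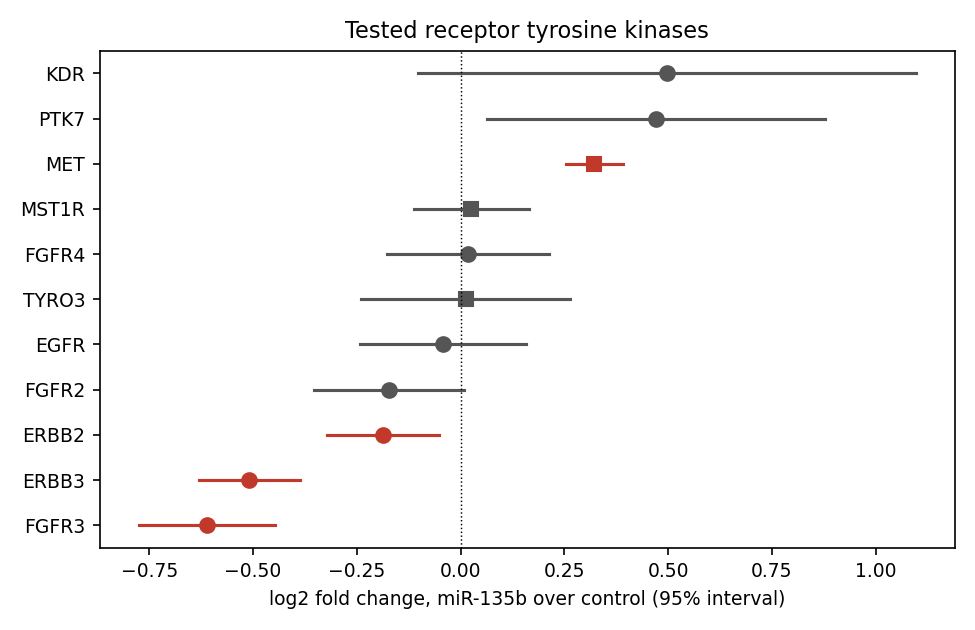
Log2 fold change (miR-135b over control) with its 95% interval for the 11 tested receptor tyrosine kinases, as squares for MET, MST1R and TYRO3 and circles for the others, in red where the adjusted p is under 0.05. MET is the only red point to the right of 0, and ERBB2, ERBB3 and FGFR3 lie to its left.

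Partners of these receptors at the membrane changed in both directions. Of 7 tested, 2 rose and 4 fell, beside 17.8% and 25.3% of all tested genes, and EGFR gave no call. EGFR, ERBB2 and ERBB3 are also among the kinases counted above, and beta-catenin is an intracellular protein of the junctions. CD44, a hyaluronan receptor of which some isoforms present growth factor to MET, fell from 2412.2, 2232.8 and 2256.2 to 1694.3, 1504 and 1696.5 normalised counts (log2 change -0.50 with SE 0.05, adjusted p = 3.84e-08 by edgeR). The integrin chain ITGB1 fell 1.467-fold. CDH1, with which MET is found at cell junctions, rose from 1595.1, 1575.8 and 1706.2 to 1871.6, 1997.1 and 2068.7 (log2 change 0.28 with SE 0.05, adjusted p = 4.92e-05 by edgeR), and CTNNB1, the beta-catenin gene, rose 1.584-fold. The groups did not overlap in any of these 4 genes, nor did they in 51.7% of all tested genes. The CDH1 call, like that of MET, was lost with spike scaling (edgeR adjusted p = 0.162, with 1.46e-09 to 0.162 over 17 alternatives).

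Few genes that act on the ligands could be measured. Urokinase is only one of several proteases described as cutting hepatocyte growth factor into its active form. PLAUR encodes the receptor that holds urokinase at the cell surface. PLAUR had 636.9, 714 and 675.4 normalised counts in the controls and 780.6, 790.1 and 702.3 in miR-135b samples, groups that overlap, and was called 1.124-fold higher (edgeR adjusted p = 0.031). Leaving out replicate 1 of the controls (0.151), or replicate 1 (0.131) or 2 (0.127) of the miR-135b samples, ended the call, and the adjusted p ranged from 0.00571 to 0.38 over 17 alternatives. The tissue plasminogen activator gene PLAT was above background in 1 of 6 samples and was not tested.

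Signal relays used by these receptors were called in both directions. Of 13 tested, 4 rose and 4 fell, beside 17.8% and 25.3% of all tested genes, with a median log2 fold change of -0.01. STAT3, a transcription factor activated by MET, rose from 642.7, 630.6 and 577.4 to 943.7, 932.7 and 883.3 normalised counts (1.488-fold, edgeR adjusted p = 3.18e-08). The SRC-family kinases FYN and YES1 rose 1.467-fold and 1.112-fold, and PIK3CA, the catalytic subunit of a PI3-kinase, rose 1.162-fold. Among the falls were NRAS, a small GTPase, and NF1, which switches such GTPases off, by 1.131-fold and 1.214-fold. Leaving out control replicate 1 ended the PIK3CA call (adjusted p = 0.0848 by edgeR, range 0.00364 to 0.275). Leaving out replicate 3 of the controls (0.0541) or of the miR-135b samples (0.0759) ended the NRAS call (range 0.00293 to 0.686), as did reference gene scaling (0.0549) and the background-subtracted limma fit (0.111). Spike scaling ended the calls of YES1 (0.46), NF1 (0.323), PIK3CA (0.275) and NRAS (0.686).

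Transcription factors described as acting on the MET promoter, listed from general knowledge with sources not traced, also moved both ways. Of 8 tested, 3 rose and 3 fell, beside 17.8% and 25.3% of all tested genes, and the median log2 fold change was 0.03. ETS1, the founding member of the ETS family, rose from 455.8, 445.7 and 489.9 to 922.9, 1010.9 and 1060.5 normalised counts (2.153-fold, edgeR adjusted p = 2.09e-12). JUN, a subunit of AP-1, and CTNNB1 rose 1.368-fold and 1.584-fold, while ETS2 and MYC were among the falls, by 1.185-fold and 1.354-fold. Spike scaling ended the calls of MYC (adjusted p = 0.0624 by edgeR, range 1.96e-31 to 0.0624) and ETS2 (0.423, range 3.78e-10 to 0.423), and limma on background-subtracted counts with reference gene scaling also ended that of ETS2 (0.108). FOS and HIF1A gave no call.

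The 250 bases before the annotated start of MET and of MST1R are shown because an ETS gene, ETS1, was among the largest rises. Of the other ETS genes tested, ETS2 and ETV6 were called lower (edgeR adjusted p = 0.000442 and 0.0236), and ETV1 gave no call. The ETS core GGAA, or TTCC where it lies on the other strand, is in capitals. These windows come from RefSeq, build GRCh38.p14, each written along its gene's own strand. They lie at chr7:116671946-116672195 on the plus strand for MET and chr3:49903874-49904123 on the minus strand for MST1R.
MET: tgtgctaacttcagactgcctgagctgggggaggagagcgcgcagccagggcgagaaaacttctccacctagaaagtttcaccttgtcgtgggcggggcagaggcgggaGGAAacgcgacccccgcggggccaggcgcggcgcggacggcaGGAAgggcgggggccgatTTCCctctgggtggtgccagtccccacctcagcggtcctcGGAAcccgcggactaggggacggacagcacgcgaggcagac
MST1R: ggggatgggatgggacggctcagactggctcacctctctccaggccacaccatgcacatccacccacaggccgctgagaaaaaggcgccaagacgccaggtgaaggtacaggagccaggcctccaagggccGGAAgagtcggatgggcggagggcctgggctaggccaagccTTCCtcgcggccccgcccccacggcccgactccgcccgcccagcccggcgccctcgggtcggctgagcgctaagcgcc

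The core was found 4 times in the MET window and 2 times in that of MST1R, and TYRO3, which has 2 annotated starts, held it 2 and 4 times. It is a short motif: 92.7% of 35116 promoter windows of the same length hold at least 1 match, with a median of 3.0 per window. The SP1-type box GGGCGG, or CCGCCC on the other strand, was found 2 times for MET, 4 times for MST1R and 3 and 0 times for TYRO3, and 42.6% of all windows hold it. The matches describe letters only.

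The genes closest in pattern to each receptor were found by the root mean square difference of log2 normalised counts, centred on each gene's mean, over the 6 samples. For MET they were PRKAR1A, a regulatory subunit of protein kinase A (0.027), TGFBI, a matrix protein induced by TGF-beta (0.043), and LAMB1, a laminin chain (0.052). These genes rose by 1.258-fold, 1.29-fold and 1.282-fold (edgeR adjusted p = 5.76e-07, 5.22e-05 and 4.07e-06), and spike scaling ended the calls of PRKAR1A (0.0864) and LAMB1 (0.0553). For MST1R they were the splicing factor SFPQ (0.053), TYRO3 (0.058) and the chromatin protein DEK (0.063), and for TYRO3 they were EGFR (0.045), MST1R (0.058) and SFPQ (0.076). None of the genes nearest to MST1R or TYRO3 was called, and control replicate 3 was also the lowest control for SFPQ, EGFR and DEK. All the nearest genes, those of MET included, were picked by likeness over the same 6 samples. Their calls, fold changes and low replicate follow largely from that choice and give no separate evidence.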

How the data were processed

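The table of raw counts that the authors deposited covers 6 samples, with 236 genes, 8 negative probes and 6 positive spikes. The deposited normalized table holds signal values on a linear scale, which match raw counts multiplied by a single factor for each sample to within 0.0053 (with the only count of 0 taken as 1). The basis of the factors, the counter and its software are not stated in the labels. Genes above background in at least 3 samples (174) were tested with edgeR 4.0.16 in R 4.3.3 (TMM, glmQLFit and glmQLFTest, group as the only term), two-sided, Benjamini-Hochberg over all 174, threshold 0.05. SE is the absolute log2 fold change over the square root of F, and intervals are 95%. The procedure was tested on simulated data. Alternatives used other scalings, DESeq2 1.42.0, limma 3.58.1, other filters, a replicate block and each sample left out. Named were the tested receptor kinases, surface partners and ligand genes, the called relays and transcription factors, and the 3 genes nearest to each receptor. The members and lists were chosen with earlier results of these data known. No sample was a copy of another: chi-square per degree of freedom within groups was 1.79 to 5.25. These values cannot tell repeat assays of the same culture from separate cultures. Intervals cover counting and sample spread only. A few genes covered by the naming rule are left unreported.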

Additional observations from a re-analysis of the deposited data

How the results depend on the processing

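Of 51 values of MET, MST1R and TYRO3 under alternatives, 46 kept direction and call, 1 lost the call and 4 turned sign. MET kept its direction in all 17 alternatives and its call in 16, and lost it with spike scaling (log2 fold change 0.366, edgeR adjusted p = 0.093); the cause was not tested. Spike scaling also gave 27 called genes against 75 and 2 called receptor kinases against 4. Leaving out 1 sample gave 60 to 76 calls, 3 to 5 called receptor kinases, and log2 fold changes of 0.314 to 0.332 for MET, -0.02 to 0.084 for MST1R and -0.055 to 0.08 for TYRO3, which was also -0.009 and -0.01 without miR-135b replicates 1 and 3. The log2 difference of MST1R over TYRO3 (0.002) became -0.009 with background subtracted and -0.044 to 0.035 without 1 sample (-0.021 and -0.009 without control replicates 1 and 2), and that of TYRO3 over reference genes (0.082) ranged from -0.016 (control replicate 3) to 0.136 without 1 sample. The share of higher calls was 31 of 75 with TMM, 37 of 67 with reference genes and 31 of 54 with limma, background subtraction and reference genes together (the combined setting). Signs that turned in other genes were all in genes without a call. EGFR became 0.001 with reference genes, 0.003 with spikes, 0.028 with the combined setting, 0.017 without miR-135b replicate 2, with -0.097 to 0.043 over the fits without 1 sample. FGFR4 ranged from -0.081 (miR-135b replicate 3) to 0.076 without 1 sample, with -0.021 without control replicate 2. SFPQ became 0.015, 0.013 and 0.017 and DEK 0.027, 0.029 and 0.027 with reference genes, spikes and the combined setting. DEK also became 0.011 with DESeq2 size factors and the stricter filter, 0.012 with the Wald test, and ranged from -0.04 to 0.002 without 1 sample. The labels do not say that samples of the same number share a batch, so the numbers were not taken as pairs. Over all 174 tested genes, deviations from the group means correlated by 0.04, -0.15 and 0.11 between samples of the same number. That check pools all tested genes and cannot exclude an effect of the replicate number on some of them. With the replicate block 80 genes passed, MET among them (log2 fold change 0.322), and MST1R and TYRO3 did not (0.027 and 0.01). The lowest counts among the 3 receptors were those of TYRO3.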
